A study of Rattus norvegicus with 8 samples.

Results

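The insulin-like growth factor (IGF) system was followed through 9 genes in cultured smooth muscle cells of the rat pulmonary artery under a nitric oxide donor. These were the ligands Igf1 and Igf2, the receptors Igf1r and Igf2r, and the binding proteins Igfbp2, Igfbp3, Igfbp4, Igfbp5 and Igfbp6. Every probe set annotated to 1 of these symbols alone was taken, which gave 23 of the 8799 probe sets of the table. They covered 8 of the 4736 genes that the table names alone on a probe set. Igfbp4 was not analysed here. Testing was limited to probe sets that reached the 40th percentile of signal on 2 or more of the 8 arrays, and 13 of the 23 were kept. These 13 belonged to Igf1 (3), Igf2 (3), Igf1r (2), Igf2r (1), Igfbp2 (3) and Igfbp6 (1).

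The cells were primary cultures grown out of pulmonary arteries of adult Sprague-Dawley rats from which endothelium and adventitia had been removed. The study measured 4 conditions with 2 arrays each: untreated control cells, and cells after 1 h, 2 h or 4 h of S-nitrosoglutathione (GSNO), which releases nitric oxide. The dose is given as 100 μmol/L in the description of the series and as 100 mmol/L in the treatment protocol, and neither was taken as fact. The control has no stated time, so time in culture cannot be told apart from GSNO. The arrays of each condition carry the number 1 or 2. The series description speaks of 2 independent cell preparations without saying that the number is the preparation, and where it is not, p-values measure only the spread between arrays.

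IGF1 and IGF2 are secreted growth factors that signal through the type 1 receptor Igf1r, a tyrosine kinase, to promote growth, survival and migration, and vascular smooth muscle is a known target of both. Igf2r, which is also the cation-independent mannose 6-phosphate receptor, takes IGF2 into the cell for breakdown. The binding proteins hold IGFs in the extracellular space, where most of the ligand is bound, and can limit or prolong their action. Igfbp6 prefers IGF2, whereas Igfbp3 and Igfbp5 can form larger complexes with the acid-labile subunit Igfals.

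In these cells no kept probe set of the system passed the test for a difference between GSNO and control at any time. The largest differences were lower signals of Igf1 and of 1 Igf2 probe set at 4 h. By contrast, Igfbp2 differed strongly between the arrays numbered 1 and 2 in every condition. Its signal was 3.57 to 7.39 times as high on the array numbered 1, across its 3 probe sets and the 4 conditions. Igfbp6 differed the opposite way. The sequences before the transcription starts of these 2 genes are shown because they carry the clearest measured contrast in the system. They are the 250 bases that end just before the annotated start, 5′ to 3′ on the gene's strand, from RefSeq on the GRCr8 build.
Igfbp2, chr9:81864561-81864810, plus strand: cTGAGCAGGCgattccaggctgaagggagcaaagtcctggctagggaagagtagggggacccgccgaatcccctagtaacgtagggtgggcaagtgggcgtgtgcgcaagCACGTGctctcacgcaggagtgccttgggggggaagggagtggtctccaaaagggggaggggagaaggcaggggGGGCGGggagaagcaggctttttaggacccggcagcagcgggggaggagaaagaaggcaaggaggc
Igfbp6, chr7:135154669-135154918, plus strand: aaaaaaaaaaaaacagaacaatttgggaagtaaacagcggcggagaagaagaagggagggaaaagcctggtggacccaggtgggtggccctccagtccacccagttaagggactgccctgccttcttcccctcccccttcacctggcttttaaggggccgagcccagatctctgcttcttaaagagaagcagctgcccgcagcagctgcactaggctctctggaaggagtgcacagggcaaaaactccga

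Capitals mark matches to any of 5 motifs searched on both strands, and no marked matches overlap. The GC box GGGCGG was found 1 time before Igfbp2 and in 30.5% of the 33469 windows of this length in the RefSeq promoter table. The E-box CACGTG was found 1 time before Igfbp2 and in 5.59% of windows. TGANNNNGC (N for any base), a loose form of the antioxidant response element core, was found 1 time before Igfbp2 and in 34.7% of windows. The TATA box TATAAA (12.9% of windows) and the cyclic AMP response element TGACGTCA (1.59%) were in neither window. The window before Igfbp6 held none of the 5. GC content was 64% before Igfbp2 and 54.8% before Igfbp6, against a median of 51.2% over all windows. CpG dinucleotides numbered 11 and 5, against a median of 5. These matches describe the letters of the windows only. All 9 genes matched the promoter table, and Igf2 had 2 entries there.

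Signals are the authors' array intensities, comparable between arrays for 1 probe set but not between probe sets. Across arrays the median signal was between 100.0 and 141.2, the 40th percentile between 57.2 and 91.0, and the 4 h array numbered 1 had the lowest of both. Differences below are on the scale of log2(signal + 21.1), which understates changes of weak probe sets. They are given with the standard error (SE) of limma's fit over all 5877 kept probe sets, with Benjamini-Hochberg adjusted p-values and a threshold of 0.05. Arrays with the same number deviated together from their group means, so limma was also fitted with the array number as a block. The block leaves a difference as it is and changes its error. Of the 10 markers fixed for smooth muscle, 7 were on the array and 5 lay above the 40th percentile on all arrays. Acta2 ranged from 10900 to 23800, Tagln from 9840 to 21300 and Myh11 from 2190 to 5040. The intermediate filament gene Des was below that percentile on every array, with a highest signal of 29.7. Of the 5 endothelial markers measured, Nos3 reached it on 6 arrays (highest signal 219), Pecam1 on 5 (129), Vwf on 1 (109), and Kdr and Sele on 0.

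Igf1, the ligand made by many mesenchymal cells, gave lower signals at 4 h than in control in each of its 3 kept probe sets. Both 4 h arrays lay below both controls in 5 of the 13 kept probe sets of the system and in 27.5% of all kept probe sets. M15481_at read 152.1 and 74.6 in control (arrays 1 and 2), 64.5 and 240.8 at 1 h, 146.1 and 178.4 at 2 h, and 30.1 and 56.1 at 4 h. Both 4 h arrays lay below all other arrays, and the 2 arrays at 1 h stood far apart. Neither 4 h array reached the 40th percentile, so the probe set was kept through other conditions. The difference at 4 h was −1.03 ± 0.57 (adjusted p = 0.572, limma), with −1.76 on the array numbered 1 and −0.31 on the array numbered 2. M15481_g_at read 97.9 and 18.7 in control, 64.7 and 16.2 at 1 h, 140.7 and 37.7 at 2 h, and 12.0 and 15.2 at 4 h. It was kept through the control and 2 h arrays numbered 1 alone, where it is high. The control and 4 h arrays did not overlap, but the array numbered 2 was already low in control. Its difference at 4 h was −0.99 ± 0.74 (adjusted p = 0.681, limma), with −1.84 and −0.13 on the array numbers 1 and 2. X06107_r_at read 180.8 and 141.0 in control, 121.9 and 165.2 at 1 h, 170.1 and 111.0 at 2 h, and 79.3 and 116.7 at 4 h. The 4 h arrays lay below both controls, by 0.62 ± 0.36 on the log2 scale (adjusted p = 0.594, limma), with −1.01 and −0.23 on the array numbers 1 and 2. On number 1, the 1 h and 4 h arrays belong to 1 recorded experiment and the control and 2 h arrays to another. In all 3 probe sets the former lay below the latter. The part of the recorded experiment in the 4 h differences was not tested separately. Over the alternatives run, the 4 h differences ran from −1.46 to −0.33, from −1.78 to −0.20 and from −0.85 to −0.20 for the 3 probe sets in this order. With the array-number block, the adjusted p-values of the 3 Igf1 probe sets at 4 h were 0.278, 0.328 and 0.335 in this order. At 1 h and 2 h the 3 probe sets ran from −0.28 to 0.50, with no shared direction. The other 2 Igf1 probe sets, X06107_i_at and D00698_s_at, reached the 40th percentile on 0 arrays, with signals between 10.1 and 75.9 and between 2.33 and 30.3.

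**Figure D1:**
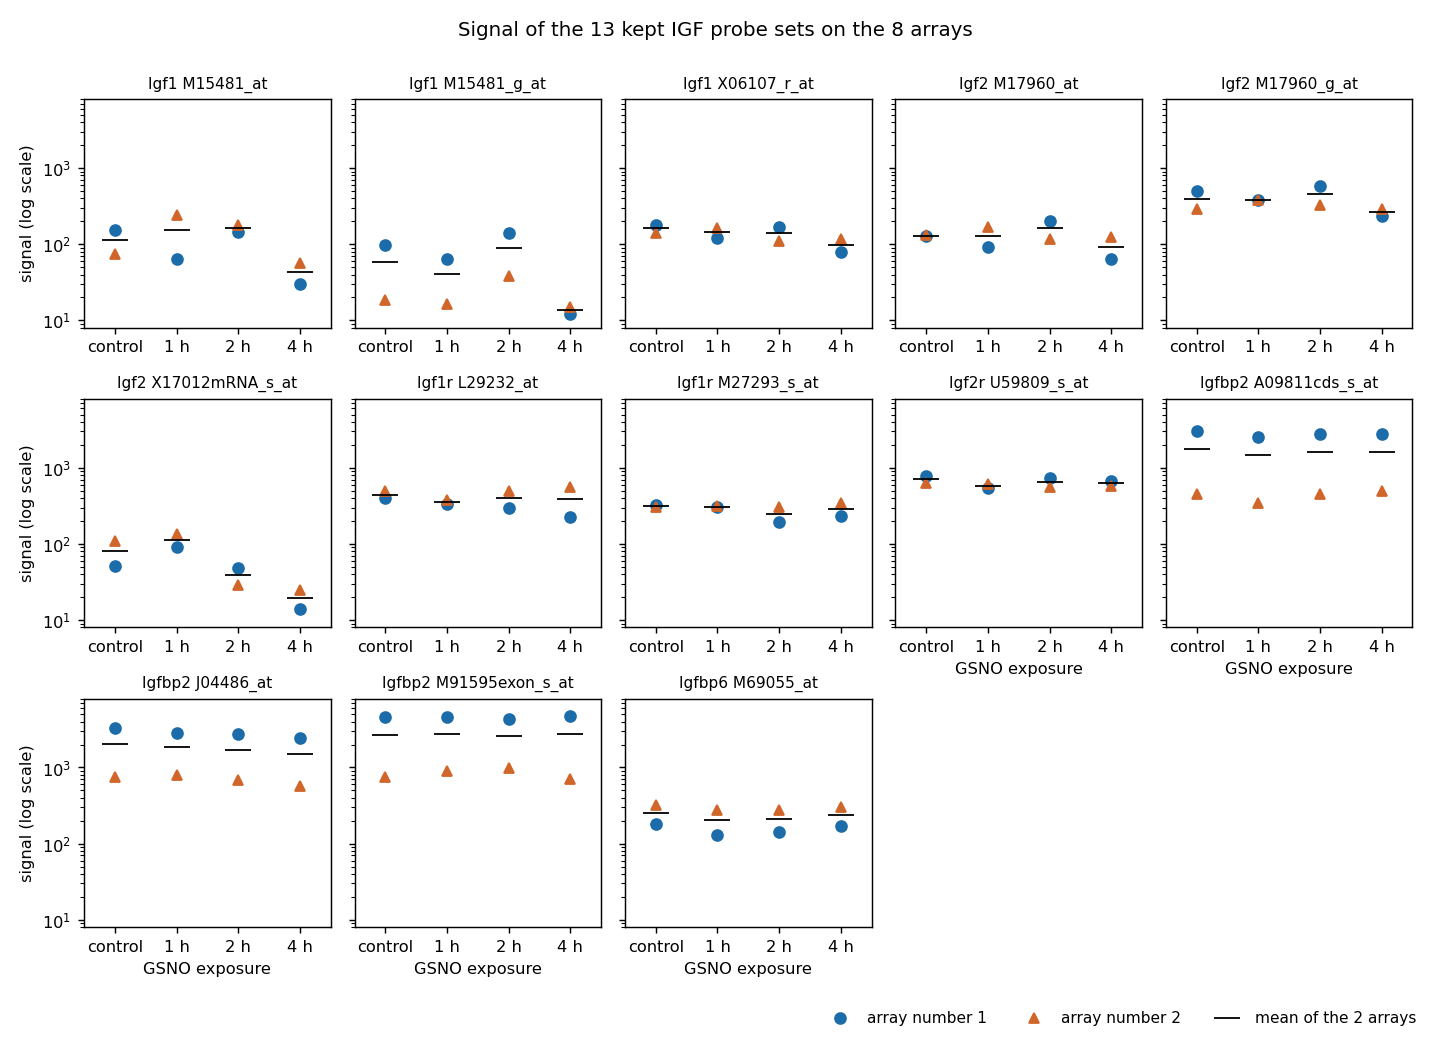
Signal of each of the 13 kept probe sets (vertical axis, log scale) in control cells and after 1 h, 2 h and 4 h of GSNO (horizontal axis), with circles for the array numbered 1, triangles for the array numbered 2 and a bar for the mean of the 2 arrays. The 3 Igfbp2 probe sets form separate upper and lower rows by array number, whereas Igf1 M15481_at and Igf2 X17012mRNA_s_at have their lowest signals at 4 h.

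Igf2, the ligand best known from fetal growth, had 3 kept probe sets that did not run alike. X17012mRNA_s_at read 50.5 and 109.2 in control, 90.5 and 136.5 at 1 h, 48.6 and 29.0 at 2 h, and 13.8 and 24.7 at 4 h. The 4 h arrays lay below all others. Only 3 of the 8 arrays reached the 40th percentile, the control array numbered 2 and both 1 h arrays, so the probe set was kept through conditions where it is high. The difference from control was 0.46 ± 0.48 at 1 h, −0.71 ± 0.48 at 2 h and −1.27 ± 0.48 at 4 h. At 4 h the unadjusted p was 0.0283 and the adjusted p 0.344 in limma's fit, and 0.145 with the block. Both array numbers gave the same sign at 4 h, with −1.04 and −1.51. Between 4 h and 1 h the difference was −1.73 ± 0.48 (adjusted p = 0.226, limma, and 0.0643 with the block), with −1.68 and −1.78 on the 2 array numbers. Both 4 h arrays were below the 40th percentile, and the values are given as a description of a weak probe set.

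The other 2 kept Igf2 probe sets, which share 1 transcript record, gave smaller differences. M17960_g_at read 495.1 and 285.5 in control, 376.2 and 374.9 at 1 h, 581.1 and 323.1 at 2 h, and 236.0 and 291.2 at 4 h. Its control and 4 h arrays overlapped, and the difference at 4 h was −0.49 ± 0.37 (adjusted p = 0.680, limma). M17960_at read 126.8 and 131.9 in control, 91.9 and 167.7 at 1 h, 204.4 and 118.7 at 2 h, and 63.4 and 122.5 at 4 h. Its 4 h arrays lay just below both controls, by 0.45 ± 0.43 on the log2 scale (adjusted p = 0.759, limma). In both probe sets, the 1 h and 4 h arrays on number 1 lay below the control and 2 h arrays. As for Igf1, these pairs belong to different recorded experiments. Over the 8 arrays the log2 values of these 2 probe sets correlated at r = 0.703, whereas with X17012mRNA_s_at they correlated at r = 0.300 and r = 0.469. These correlations describe 8 arrays that share 4 conditions and 2 array numbers. The 3 Igf2 probe sets that were not kept, X16703_r_at, E00988mRNA_s_at and X16703_i_at, had highest signals of 63.9, 39.7 and 9.85.

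The 3 probe sets of other genes whose log2 values ran most like Igf2 X17012mRNA_s_at over the 8 arrays, of 4838 compared, were those of Crcp (r = 0.950), Lrch4 (r = 0.943) and Rheb (r = 0.934). Being the highest of many, these values are a description only.

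Igf1r, which carries the growth signal of both ligands, was measured above the 40th percentile on all 8 arrays by 2 probe sets. L29232_at read 402.0 and 488.7 in control, 330.0 and 372.2 at 1 h, 299.8 and 494.8 at 2 h, and 223.8 and 559.9 at 4 h. The 1 h arrays lay below both controls, as in 13% of all kept probe sets, whereas the 4 h arrays were the lowest and the highest of all. The differences from control were −0.32, −0.19 and −0.30 at the 3 times, each with an SE of 0.43, and the 95% interval at 4 h was −1.28 to 0.68. M27293_s_at read 323.5 and 307.4 in control, 306.1 and 312.6 at 1 h, 192.2 and 304.2 at 2 h, and 235.3 and 339.7 at 4 h. The array numbered 1 was low at 2 h and 4 h, and the array numbered 2 lay between 304.2 and 339.7. The differences were −0.03, −0.35 and −0.15, each with an SE of 0.31 (adjusted p of 1.00, 1.00 and 0.915, limma).

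Igf2r, the clearance receptor of IGF2, was measured by 1 probe set, above the 40th percentile on all 8 arrays. U59809_s_at read 775.5 and 628.3 in control, 549.5 and 612.8 at 1 h, 738.0 and 559.9 at 2 h, and 672.4 and 583.2 at 4 h. The 1 h arrays lay below both controls and the other times overlapped them. At 1 h, 2 of the 13 kept probe sets of the system and 13% of all kept probe sets lay below both controls. The differences were −0.26, −0.12 and −0.15, each with an SE of 0.26, and the 95% interval at 4 h was −0.74 to 0.44.

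**Figure D2:**
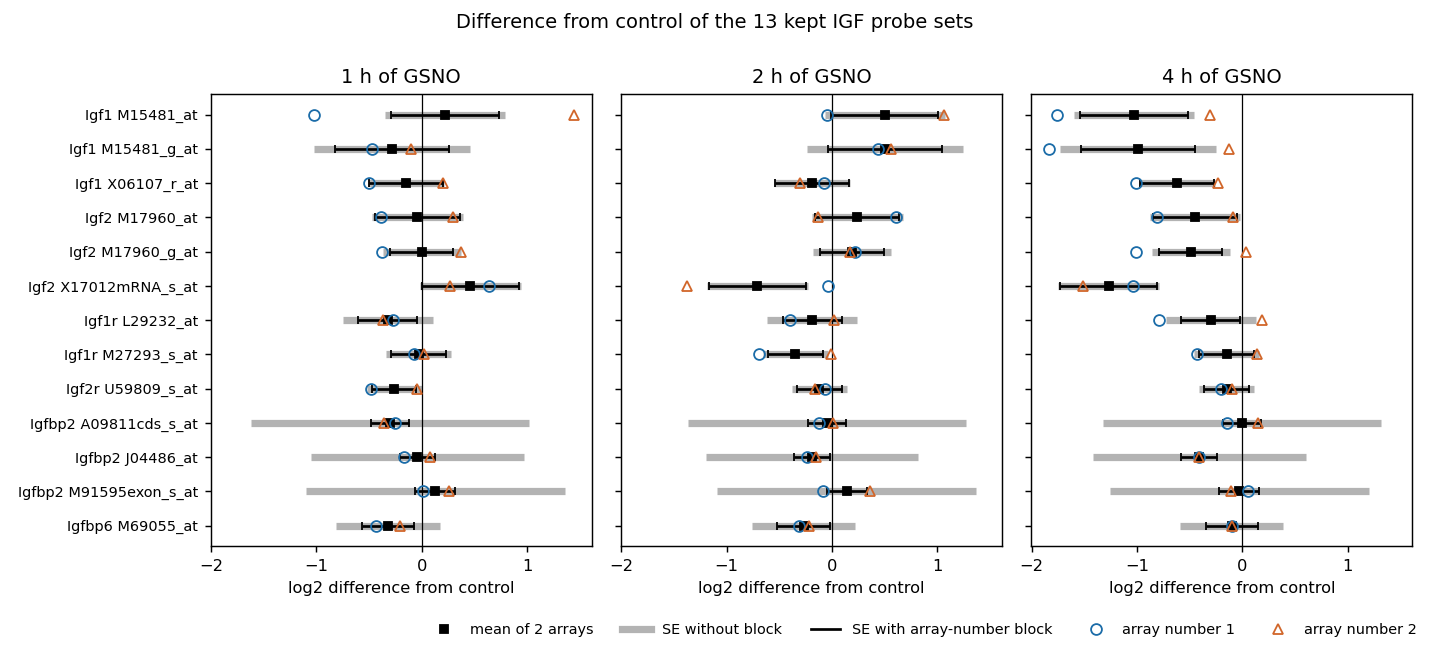
Difference from control on the log2 scale (horizontal axis) for the 13 kept probe sets after 1 h, 2 h and 4 h of GSNO, as the mean of 2 arrays (squares), with the SE of limma's fit without the block (grey bars) and with the array-number block (black bars), and the difference within each array number (open circles and triangles). At 4 h the Igf1 probe sets and Igf2 X17012mRNA_s_at lie at −0.62 to −1.27, and the grey bars of Igfbp2 are several times longer than its black bars.

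Igfbp2, a binding protein made by smooth muscle and other mesenchymal cells, differed most between the array numbers among the 6 kept genes. M91595exon_s_at read 4566 and 753.4 in control (arrays 1 and 2), 4596 and 906.4 at 1 h, 4276 and 976.1 at 2 h, and 4720 and 698.6 at 4 h. J04486_at read 3248 and 758.1 in control, 2876 and 804.8 at 1 h, 2754 and 682.2 at 2 h, and 2433 and 563.5 at 4 h. A09811cds_s_at read 3053 and 450.5 in control, 2564 and 347.0 at 1 h, 2803 and 454.5 at 2 h, and 2749 and 501.3 at 4 h. In each probe set all 4 arrays numbered 1 lay above all 4 numbered 2, as 20.9% of all kept probe sets parted by number in 1 direction or the other, and within a number the conditions lay close together. For M91595exon_s_at the mean was 4540 ± 187.8 (SD, n = 4) on number 1 and 833.6 ± 129.5 (SD, n = 4) on number 2. Within its array the probe set stood at percentile 95.9 to 96.2 on number 1 and at percentile 80.5 to 84.8 on number 2.

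The difference between array numbers was tested in the fit with condition and number, a comparison added after the data had been seen. It was −2.62 ± 0.13 for A09811cds_s_at, −2.43 ± 0.13 for M91595exon_s_at and −1.98 ± 0.12 for J04486_at, number 2 minus number 1. The adjusted p-values from limma were 5.56e-06, 1.09e-05 and 1.58e-05. Arrays of the same number share a scan run and a fluidics setting. The p-values between array numbers, here and below, therefore measure only the spread between arrays, not that between runs or cell preparations. Each of the 4 conditions gave the same sign, from −2.41 to −2.81, from −2.11 to −2.72 and from −1.81 to −2.07. Among the 5877 kept probe sets, 3, 6 and 13 were lower on number 2 by more than these. The array number took 98.8%, 98.7% and 97.1% of their variance over the 8 arrays, against a median of 22.4% over all kept probe sets.

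Against this the conditions differed little. With the block, the differences of the 3 Igfbp2 probe sets from control ran from −0.41 to 0.14, with SEs of 0.17 to 0.19, and without it the SEs were 1.01 to 1.32. The largest was that of J04486_at at 4 h, −0.41 ± 0.17 with the block, and −0.41 on each array number (unadjusted p = 0.0339, adjusted p = 0.195, limma). At that time the other 2 probe sets of the gene stood at −0.03 and 0.00. With the block, their 95% intervals at 4 h were −0.45 to 0.39 and −0.40 to 0.40.

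Igfbp6, the binding protein with a preference for IGF2, was higher on number 2. M69055_at read 181.7 and 322.4 in control, 129.9 and 275.4 at 1 h, 142.3 and 273.6 at 2 h, and 168.4 and 300.2 at 4 h. All arrays numbered 2 lay above all numbered 1, with means of 292.9 and 155.6. The difference was 0.84 ± 0.18 (adjusted p = 0.00852, limma), from 0.76 to 0.97 in the 4 conditions, and the number took 90.5% of the variance. Against control the differences were −0.32, −0.27 and −0.10 at the 3 times, with an SE of 0.25 with the block and adjusted p-values of 0.999, 0.785 and 0.855.

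Thus 4 of the 13 kept probe sets of the system, from 2 of its 6 kept genes, differed between array numbers. Over all kept probe sets 1278 did, or 21.7%, of which 783 were higher and 495 lower on number 2. The ligands and receptors did not pass: the nearest were Igf1r L29232_at at 0.59 ± 0.20 (adjusted p = 0.0611, limma) and Igf1 M15481_g_at at −1.03 ± 0.38 (adjusted p = 0.0848, limma). Without the 4 h array numbered 1 or the 4 h array numbered 2, the latter stood at −1.41 with adjusted p-values of 0.0227 and 0.0221. Scan run and fluidics setting follow the array number. The arrays numbered 2 share 1 chip lot and 1 recorded experiment, and those numbered 1 span 2 other lots and 2 other recorded experiments. The cell preparation may follow the number too, and these cannot be told apart. The summed signal of the smooth muscle markers was 53000 to 61900 on number 1 and 38500 to 47300 on number 2. The sum of the 8 cardiac and skeletal muscle markers was 980 to 1650 and 620 to 904, that of the 5 endothelial markers 148 to 358 and 216 to 370, and that of the 7 fibroblast and adventitia markers 26600 to 35800 and 24600 to 38800. The 6 leukocyte markers summed to 455 to 706 and 719 to 789, and the 8 lung epithelial markers to 803 to 1370 and 560 to 758. No marker was at 0. Below the 40th percentile on all arrays were 2 of the 5 endothelial, 0 of the 7 fibroblast, 3 of the 6 leukocyte, 5 of the 8 lung epithelial and 1 of the 8 cardiac and skeletal markers, and above it on all arrays 0, 6, 1, 2 and 1. The 99th percentile of signal was 13730 to 15900 on number 1 and 9213 to 11020 on number 2. The part of these in the Igfbp2 and Igfbp6 differences was not tested.

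**Figure D3:**
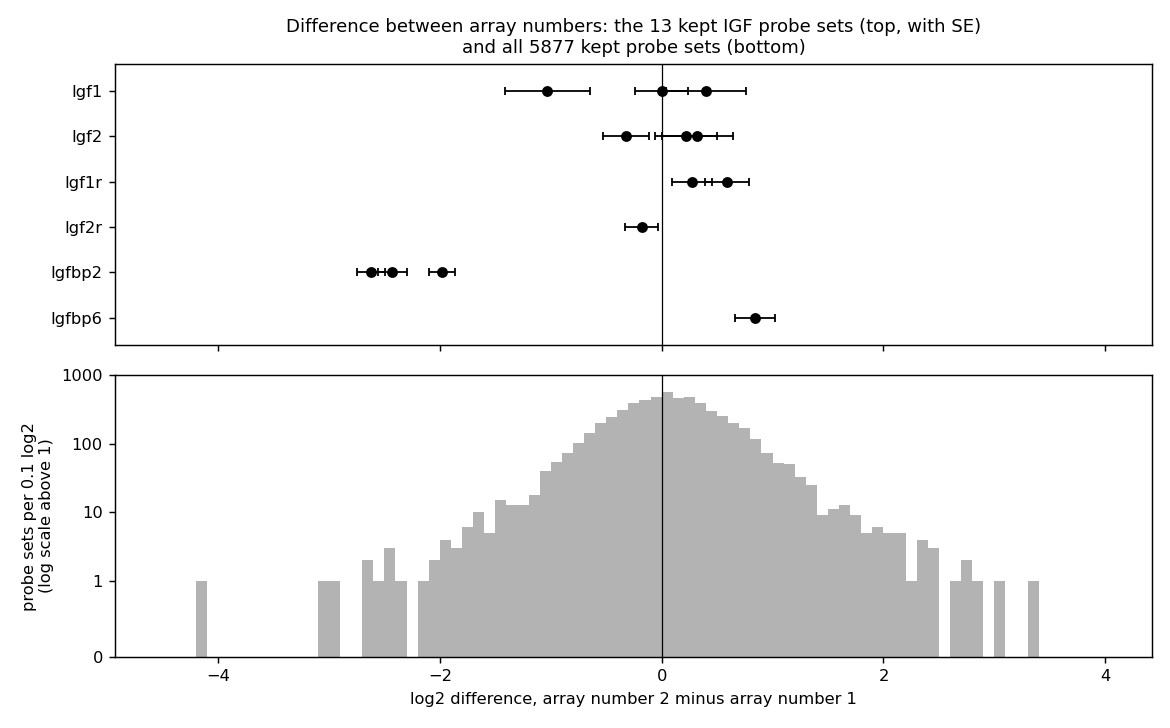
Difference between array numbers on the log2 scale (horizontal axis, number 2 minus number 1) for the 13 kept probe sets by gene (top, points with SE) and the number of all 5877 kept probe sets in each interval of that axis (bottom, vertical axis logarithmic above 1). The 3 Igfbp2 probe sets, at −2.62, −2.43 and −1.98, lie in the far left tail, and Igfbp6, at 0.84, lies to the right.

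Igfbp3 and Igfbp5, the binding proteins that can join Igfals in larger complexes, gave weak signals. All 5 of their probe sets stayed below the 40th percentile on all 8 arrays, so they were not kept, and they are given without filtering. Igfbp5 lies next to Igfbp2 on chromosome 9 with 0 protein-coding genes between them in the RefSeq gene table. Igfbp3 M31837_at read 46.2 and 46.2 in control, 12.9 and 18.9 at 1 h, 37.5 and 43.4 at 2 h, and 9.14 and 17.6 at 4 h. The 1 h and 4 h arrays lay below the control and 2 h arrays. Of all kept probe sets, which do not include M31837_at, 13% lay below both controls at 1 h and 27.5% at 4 h. In a fit of all 8740 probe sets without the filter, its differences from control were −0.87 ± 0.31, −0.13 ± 0.31 and −0.97 ± 0.31. The adjusted p at 4 h was 0.280 in limma's fit and 0.135 with the block. The 1 h and 4 h arrays numbered 1 belong to 1 recorded experiment and the control and 2 h arrays numbered 1 to another, whereas all arrays numbered 2 belong to the third. The other Igfbp3 probe set, rc_AI009405_s_at, ranged from 3.38 to 52.7. Its arrays numbered 1 read 52.0, 10.6, 52.7 and 3.38 from control to 4 h, and those numbered 2 read 12.1, 14.1, 13.8 and 6.76. Without the filter its differences from control were −0.56, 0.04 and −0.92, each with an SE of 0.46. The part of the recorded experiment in the Igfbp3 differences was not tested.

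Igfbp5 rc_AI029920_s_at read 7.52 and 14.3 in control, 57.5 and 43.4 at 1 h, 26.4 and 59.2 at 2 h, and 36.3 and 31.8 at 4 h. All 6 GSNO arrays lay above both controls. Of all kept probe sets, which do not include rc_AI029920_s_at, 10.1% lay above both controls at 1 h, 12.9% at 2 h and 13.4% at 4 h. The share that did so at all times together was not counted, nor were shares among the probe sets that were not kept. In the fit without the filter the differences were 1.16 ± 0.37 at 1 h, 0.95 ± 0.37 at 2 h and 0.79 ± 0.37 at 4 h, with adjusted p-values of 0.905, 0.816 and 0.603 (limma) and of 0.476, 0.385 and 0.323 with the block. The other 2 Igfbp5 probe sets did not share this pattern. M62781_at ranged from 10.1 to 32.4 and rc_AI070577_at from 3.06 to 20.8.

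**Figure D4:**
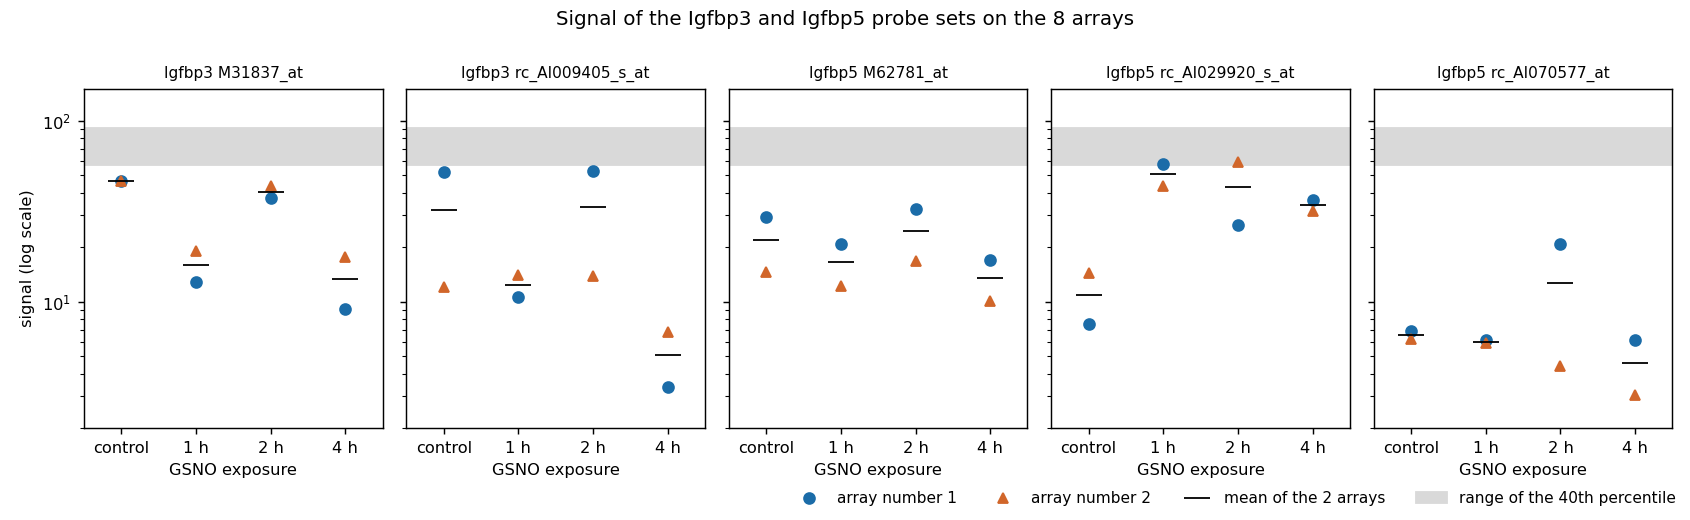
Signal (vertical axis, log scale) of the 2 Igfbp3 and 3 Igfbp5 probe sets in control cells and after 1 h, 2 h and 4 h of GSNO, with circles for the array numbered 1, triangles for the array numbered 2, a bar for the mean and grey shading for the range of the 40th percentile over the 8 arrays (57.2 to 91.0). Each array is compared with its own percentile, so points inside the shading are still below it, and Igfbp3 M31837_at is low at 1 h and 4 h on both arrays.

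Read as a group, 0 of the 13 kept probe sets passed the threshold in any comparison of conditions, with or without the block. The share of all kept probe sets that passed at 1 h was 0.527% (29 higher, 2 lower) and 1.34% with the block. At 2 h it was 0.97% (46 higher, 11 lower) and 3.16% with the block, and at 4 h 1.53% (56 higher, 34 lower) and 7.93% with the block. Between 4 h and 1 h it was 0.476% (12 higher, 16 lower) and 5.1% with the block. With all arrays set to a common median, the split became 83 higher and 21 lower at 4 h, and 18 higher and 6 lower between 4 h and 1 h. At an unadjusted p under 0.05, 0 members passed at 1 h and 2 h, 1 at 4 h and 1 between 4 h and 1 h, and with the block 0, 0, 2 and 2. The median difference of the members was −0.04, −0.12 and −0.41 at the 3 times, against −0.05, −0.06 and −0.16 over all kept probe sets. At 4 h 0 of the 13 were above 0.00, where 64.6% of all kept probe sets were below 0. A common median moved the median of all kept probe sets at 4 h to 0.04 and that of the members to −0.20, with 8 of 13 below 0 against 46.3% of all. Neither 4 h array reached the 40th percentile for Igf1 M15481_at, Igf1 M15481_g_at and Igf2 X17012mRNA_s_at, so these counts and medians are a description only. With so small a share called over the whole array, 0 of 13 is close to the background.

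The wider IGF and insulin pathway was read from a list of 71 genes, of which 47 were on the array and 42 were kept, each by its kept probe set with the highest mean. In limma's fit without the block 0 passed in any comparison. With the block 0 passed at 1 h, 1 at 2 h (lower), 2 at 4 h (both lower) and 1 between 4 h and 1 h (lower). Of all kept probe sets, 1.34%, 3.16%, 7.93% and 5.1% passed with the block in these comparisons, in the same order. The list's median difference was −0.05, −0.07 and −0.01 at the 3 times.

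Grb14, an adaptor that binds the activated insulin receptor and restrains its signal, was lower at 4 h with the block. AF076619_at read 5863 and 2913 in control, 4978 and 2685 at 1 h, 2857 and 2474 at 2 h, and 1401 and 764.6 at 4 h. Both 4 h arrays lay below all others, and number 1 lay above number 2 in every condition. The difference at 4 h was −1.97 ± 0.21 with the block (adjusted p = 3.28e-04, limma), with −2.05 and −1.90 on the 2 array numbers. Without the block the SE was 0.45 and the adjusted p 0.0813. Against 1 h it was −1.80 ± 0.21 with the block (adjusted p = 0.0012, limma; 0.178 without it).

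Ccn1, a matrix protein of the CCN family whose amino end resembles IGF binding proteins, was lower at 2 h and 4 h with the block. The probe set rc_AA800784_at read 587.9 and 126.0 in control, 257.6 and 82.0 at 1 h, 98.6 and 23.3 at 2 h, and 150.2 and 36.4 at 4 h. Within each array number the 2 h array was the lowest and control the highest. The differences with the block were −2.04 ± 0.32 at 2 h (adjusted p = 0.00565, limma) and −1.59 ± 0.32 at 4 h (adjusted p = 0.0134, limma). Without it the adjusted p-values were 0.795 and 0.565. A block on recorded experiments in place of array numbers gave 0.0164 and 0.0963.

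Irs2, a docking protein for both the insulin and the IGF receptor, was high at 1 h without passing. AF050159_at read 64.5 and 62.0 in control, 171.9 and 170.5 at 1 h, 58.2 and 142.6 at 2 h, and 39.7 and 102.3 at 4 h. Both 1 h arrays lay above all others, and the arrays at 2 h and 4 h stood apart by number. Both control arrays were below the 40th percentile, so the probe set was kept through GSNO arrays where it is high. The difference at 1 h was 1.19 ± 0.48 (adjusted p = 1.00, limma, and 0.489 with the block). A second kept Irs2 probe set, AF083418_at, read 36.5 and 203.2 at 1 h against 35.0 and 29.1 in control, so only 1 of its arrays was high. Its control arrays were also below the 40th percentile. The Irs2 probe sets AF087674_at and U89743_at were not kept. AF087674_at read 10.03 and 73.87 at 1 h against 29.74 and 12.47 in control. For U89743_at the signals were 33.87 and 34.64 against 34.25 and 29.7.

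**Figure D5:**
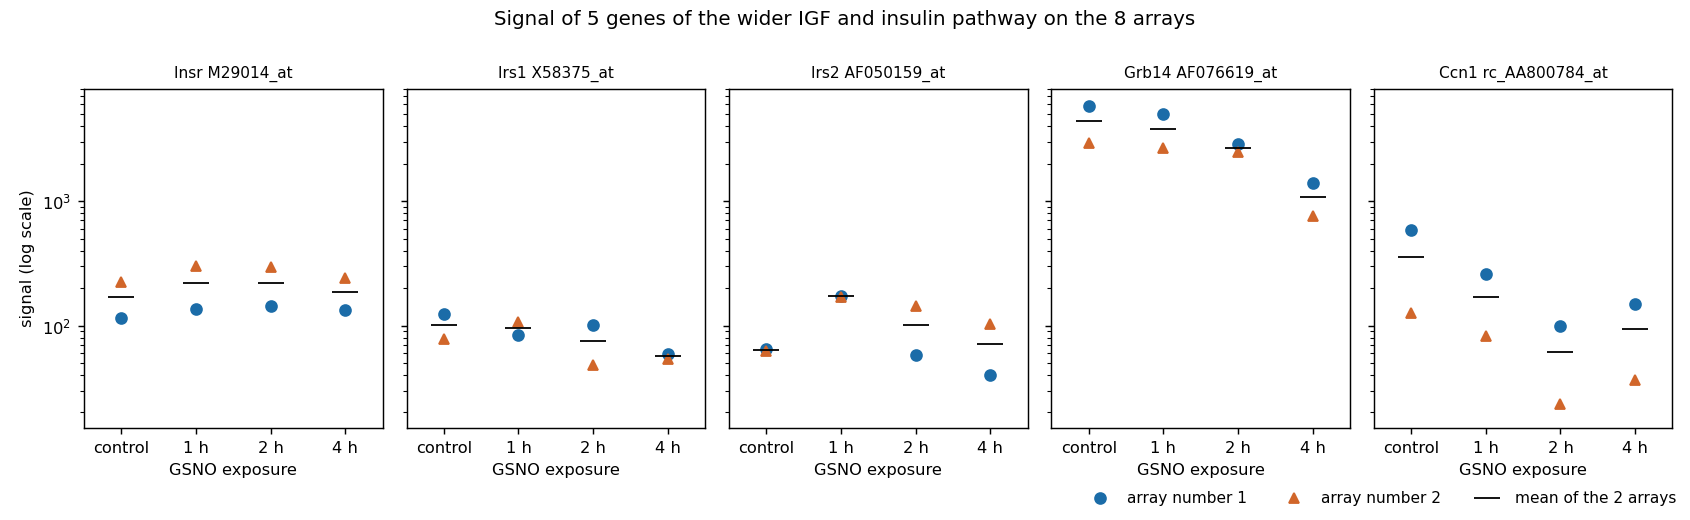
Signal (vertical axis, log scale) of Insr, Irs1, Irs2, Grb14 and Ccn1 in control cells and after 1 h, 2 h and 4 h of GSNO, with circles for the array numbered 1, triangles for the array numbered 2 and a bar for the mean. Grb14 is lowest at 4 h on both array numbers, Ccn1 is lowest at 2 h, and the Irs2 arrays coincide in control and at 1 h and separate later.

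The insulin receptor Insr (M29014_at) read 114.6 and 223.6 in control and 132.1 and 239.8 at 4 h, a difference of 0.13 ± 0.52 (adjusted p = 0.961, limma). Irs1 (X58375_at), the other main docking protein, read 123.2 and 77.6 in control and 58.7 and 54.0 at 4 h, a difference of −0.62 ± 0.42 (adjusted p = 0.648, limma). Igfals (S46785_at) read 227.0 and 204.6 in control and 131.8 and 160.6 at 4 h, a difference of −0.51 ± 0.32 (adjusted p = 0.622, limma). The other 2 kept Igfals probe sets, S46785_g_at and rc_AA924289_s_at, stood at 0.03 and 0.08 and overlapped control. Irs1 and S46785_at were thus lower on both 4 h arrays than in control without passing, and the Insr arrays were separated by number. At 4 h, 27.5% of all kept probe sets lay below both controls. Igfbp1 was not kept, with a highest signal of 26.5. The growth hormone receptor Ghr was not kept either, although S49003_s_at read 226.0 on the control array numbered 1 and 21.8 to 58.6 on the others. Among further probe sets of listed genes, 2 passed at 4 h with the block while the probe set that stood for the gene did not. The kinase gene Map2k1 gave 1.08 ± 0.23 in D14591_s_at (adjusted p = 0.0187, limma) against 0.61 ± 0.27 in L04485mRNA_s_at and −0.16 ± 0.27 in rc_AI178835_at. Against 1 h, D14591_s_at gave 1.04 ± 0.23 with the block (adjusted p = 0.0322, limma). The phosphatase gene Ptpn1 gave 0.76 ± 0.20 in rc_AI113289_s_at (adjusted p = 0.0431, limma) against 0.36 ± 0.20 in M33962_g_at and −0.16 ± 0.26 in rc_AI112391_s_at. Its other kept probe sets, rc_AI180145_s_at and M33962_at, gave 0.86 ± 0.25 and 0.56 ± 0.26 without passing. Without the block, the adjusted p-values at 4 h were 0.122 for D14591_s_at and 0.205 for rc_AI113289_s_at (limma).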

How the data were processed

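RNA of 8 samples of rat pulmonary artery smooth muscle cells was hybridised to Affymetrix rat arrays, 2 per condition. The deposited values are linear intensity values, 1 for each probe set, made by the authors with the array maker's software, per the series description; the 2% trimmed mean was 500.7 to 501 on all arrays. No detection calls were used here. Control features (59) were dropped, leaving 8740 probe sets, of which 5877 passed the filter on the 40th percentile. The offset of 21.1 before log2 is the median over arrays of the 20th percentile. Gene symbols come from the platform annotation in GEO, and the gene IDs of all 23 IGF probe sets carried the same symbol in the RefSeq gene table.

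The tests were run in limma 3.58.1 (R 4.3.3) with all 4 conditions in 1 fit (4 residual degrees of freedom, 3 with the block), a variance trend and two-sided p-values. The procedure was tested on simulated data. The number of arrays limits the precision. Same-numbered arrays deviated together, with correlations of 0.387 to 0.569 over the 6 pairs of conditions, all above 0.1, so values with the array number as a block stand beside the results. The members, the 71-gene list, the markers and the tests were chosen with earlier results of these data known. Every probe set of the members was named. A listed gene was named when the kept probe set with its highest mean passed at any time, and Igfbp1, Igfals, Insr, Irs1, Irs2 and Ghr in any case. As no member passed, likeness was computed for the member probe set with the lowest adjusted p. Alternatives were other offsets, filters, scalings and blocks, no variance trend, only the groups compared, and each array left out. Figures were drawn with matplotlib.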

Additional observations from a re-analysis of the deposited data

How the results depend on the processing

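Of 39 member values against control, fitted 687 times over 18 settings, 0 were called, and the lowest adjusted p was 0.145 (limma). Counted on rounded values, the sign of 26 of them turned in at least 1 alternative and that of 13 did not. The 13 include Igfbp2 A09811cds_s_at at 4 h and Igf2 M17960_g_at at 1 h. Their main values rounded to 0 and so could not count as turned. Over the alternatives they ran from −1.35 to 1.35 and from −0.38 to 0.45. The differences between array numbers of the 3 Igfbp2 probe sets and Igfbp6 kept their sign and passed in all alternatives run. Those of Igfbp2 ran from −2.70 to −1.87 and those of Igfbp6 from 0.62 to 0.92.

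Under a replicate block on array number, the number of probe sets called was 79 at 1 h, 186 at 2 h, 466 at 4 h and 300 between 4 h and 1 h, and the number of genes of the IGF pathway list was 1 at 2 h, 2 at 4 h and 1 between 4 h and 1 h. The block changed no call of a member. With the recorded experiment as a block, Grb14 passed at 4 h (adjusted p = 0.00828, limma) and Ccn1 at 2 h (0.0164) but not at 4 h (0.0963), and the numbers of probe sets were 152 at 2 h, 165 at 4 h and 201 between 4 h and 1 h. With only the 2 groups compared they were 37 at 2 h and 0 between 4 h and 1 h, from fewer arrays. Without the variance trend they were 4 between 4 h and 1 h and 837 between array numbers. Leaving out each array in turn gave 5 to 27 at 1 h, 19 to 52 at 2 h, 32 to 87 at 4 h, 0 to 23 between 4 h and 1 h and 634 to 1148 between array numbers, from 7 arrays. The lowest counts came without the 1 h array numbered 1 at 1 h, the 2 h array numbered 1 at 2 h, the control array numbered 1 at 4 h, the 1 h array numbered 2 between 4 h and 1 h, and the 2 h array numbered 2 between array numbers. Counts moved by over 1.5 times without either array of the conditions compared at 1 h and 2 h. At 4 h they did so without either control array (32 and 45) and without the 4 h array numbered 2 (41). Between 4 h and 1 h they did so without every array but the 2 h array numbered 2, and between array numbers without either 2 h array (643 and 634).

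Signs also turned for values that were not called. The cause was not tested, except that leaving out an array leaves its condition with a single array number, assumed to vary like the other groups. Signs listed here are those of unrounded values. Igfbp2 A09811cds_s_at at 4 h and Igf2 M17960_g_at at 1 h are therefore listed, although not counted as turned above. With the recorded experiment as a block, turned values were 0.01 for Igfbp2 A09811cds_s_at, 0.09 for Igf2 M17960_at and 0.01 for Igf2r at 4 h, and 0.21 for Igf1 M15481_g_at, 0.49 for Igf2 M17960_at, 0.45 for Igf2 M17960_g_at and 0.27 for Igf1 X06107_r_at at 1 h. With an offset of 1, Igfbp2 A09811cds_s_at at 4 h and Igf1 X06107_r_at between array numbers stood at 0.00. With a common median, values at 4 h were 0.22 for Igfbp2 A09811cds_s_at, 0.19 for Igfbp2 M91595exon_s_at, 0.06 for Igf1r M27293_s_at, 0.10 for Igfbp6 and 0.06 for Igf2r. For 4 h against 1 h they were 0.07 for Igf1r M27293_s_at and 0.04 for Igfbp2 M91595exon_s_at, and for Igf2 M17960_g_at 0.01 at 1 h. With quantile normalization they were 0.01 for Igf2 M17960_g_at and 0.00 for Igf1r M27293_s_at at 1 h, and 0.08 for Igfbp6 at 4 h. With each array left out in turn, Igfbp2 A09811cds_s_at ran from −1.71 to 1.10 at 1 h, from −1.41 to 1.30 at 2 h, from −1.35 to 1.35 at 4 h, from −1.10 to 1.71 for 4 h against 1 h. Igfbp2 J04486_at ran from −1.08 to 0.99 at 1 h, from −1.23 to 0.84 at 2 h, from −1.45 to 0.62 at 4 h, from −1.40 to 0.67 for 4 h against 1 h. Igf1r L29232_at ran from −0.53 to 0.15 at 2 h, from −0.92 to 0.32 at 4 h, from −0.60 to 0.64 for 4 h against 1 h. Igf1 M15481_at ran from −0.59 to 1.02 at 1 h, from 0.00 to 0.82 for number 2 against number 1. Igf1 M15481_g_at ran from −1.07 to 0.51 at 1 h, from −0.29 to 1.29 at 2 h. Igf2 M17960_at ran from −0.41 to 0.33 at 1 h, from −0.11 to 0.58 at 2 h. Igf2 M17960_g_at ran from −0.38 to 0.37 at 1 h, from −0.21 to 0.60 at 2 h. Igf1r M27293_s_at ran from −0.06 to 0.01 at 1 h, from −0.39 to 0.10 at 4 h, from −0.37 to 0.13 for 4 h against 1 h. Igfbp6 M69055_at ran from −0.81 to 0.17 at 1 h, from −0.69 to 0.16 at 2 h, from −0.48 to 0.28 at 4 h, from −0.27 to 0.71 for 4 h against 1 h. Igfbp2 M91595exon_s_at ran from −1.15 to 1.42 at 1 h, from −1.15 to 1.42 at 2 h, from −1.39 to 1.33 at 4 h, from −1.52 to 1.20 for 4 h against 1 h. Igf2r U59809_s_at ran from −0.31 to 0.08 at 2 h. Igf1 X06107_r_at ran from −0.34 to 0.04 at 1 h, from −0.45 to 0.08 at 2 h, from −0.16 to 0.17 for number 2 against number 1. Grb14 AF076619_at ran from −0.68 to 0.33 at 1 h. Ccn1 rc_AA800784_at ran from −1.84 to 0.20 at 1 h, from −1.56 to 0.02 for 4 h against 1 h. Irs2 AF050159_at ran from −0.09 to 0.96 at 2 h, from −0.47 to 0.55 at 4 h.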

Other observations

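Probe sets of other genes stood as far apart between the array numbers as Igfbp2, here named after their values were seen, as the 3 genes with the largest difference in each direction other than Igfbp2, from probe sets with 1 gene symbol. Lower on number 2 were the smooth muscle actin gene Actg2 (mean signal 931 on number 1 and 37.5 on number 2, a log2 difference of −4.14 ± 0.26), Fam111a (410 and 23.5, −3.07 ± 0.27) and the LIM protein gene Csrp2 (2130 and 251, −2.99 ± 0.13). Higher on number 2 were Aldh1a2, which makes retinoic acid (157 and 1370, 3.08 ± 0.21), the LIM protein gene Fhl2 (137 and 1090, 2.87 ± 0.24) and the LIM protein gene Pdlim4 (22 and 278, 2.79 ± 0.24). Their adjusted p-values in limma's fit with condition and array number lay between 3.83e-06 and 0.000126. The array number, the scan run, the fluidics setting and possibly the cell preparation cannot be told apart here.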
